A study of Mus musculus with 2 samples.

Results

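Intronic DRACH sites are adenosines listed as N6-methyladenosine (m6A) that sit in a DRACH 5-mer, lie inside a protein-coding gene and are covered by no exon. DRACH reads, 5′ to 3′, A, G or T, then A or G, then the methylated A, then C, then A, C or T. The sites were taken from the union of the positions listed for a cerebellum and a cerebrum library. The 5-mer was read from the GRCm38 genome, and a site counted as intronic when it lay in the interval of a protein-coding gene of GENCODE M21 on its own strand and outside every exon of every transcript on that strand. Of 219409 listed positions, 6588 met this rule. They made up 6.76% of the 97384 listed DRACH sites (95% Wilson interval 6.61 to 6.92), against 86009 DRACH sites in exons of coding genes. The remaining listed intronic positions, 48583 of them, lay outside DRACH.

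Both libraries came from poly(A)+ RNA labelled as that of a female P0 mouse of the F1r hybrid, with a C57BL/6J mother and a PWK/PhJ father, and there was 1 library per tissue. GLORI, the assay used, deaminates unmethylated adenosines with glyoxal and nitrite so that they are read as guanosine, while m6A is still read as adenosine, which gives methylation at single bases. The study kept the GLORI positions that overlapped peaks of m6A-seq, an antibody-based assay, in the same tissue. It took the m6A level of each allele from the m6A-seq reads. The lists used here were not restricted to those peaks, so a listed position need not be among the study's high-confidence sites. The lists held positions alone, filtered by the authors on methylation rate and read count, so neither the level of methylation nor the depth behind a site is known here.

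The cerebellum list held 79355 positions and the cerebrum list 188295, of which 48241 were in both. With 1 library per tissue no test between tissues was possible. Intervals rest on sites taken as independent, and they hold counting error alone. Although both libraries were labelled female, 14 positions of the cerebellum list and 30 of the cerebrum list were on chromosome Y. Among the intronic DRACH sites 1 was on chromosome Y.

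The METTL3–METTL14 complex writes m6A while RNA polymerase II is still transcribing, so introns can be methylated before they are spliced out. In mature mRNA the mark is densest around stop codons and in long internal and last exons, and it is sparse close to exon junctions, where the exon junction complex keeps the writer away. The nuclear reader YTHDC1 binds m6A in nuclear RNA and takes part in splicing and RNA export. In poly(A)+ RNA an intronic read can come from a retained intron, from a transcript not yet spliced, or from an exon or transcript end that the annotation lacks. Neurons express many very long genes, in which introns take up almost the whole of the transcription unit.

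The 4 windows that follow are shown because each holds the densest 300 nt of one of the largest clusters of intronic DRACH sites outside all GENCODE and RefSeq exons. They are written 5′ to 3′ on the strand of the gene, from GRCm38, with the 5-mer of every listed intronic DRACH site in capitals and everything else, unlisted DRACH 5-mers included, in lower case. The window in Nfasc, at chr1:132598206-132598505 on the minus strand, lay in intron 25 of 35 and held 7 sites, 6 of them found in both libraries. The window in Cntn6, at chr6:104754773-104755072 on the plus strand, lay in intron 8 of 23 and held 8 sites, 6 in both. The window in Dync2h1, at chr9:7183656-7183955 on the minus strand, lay in intron 1 of 90 and held 8 sites, 4 in both. The window in Tenm2, at chr11:36606266-36606565 on the minus strand, lay in intron 6 of 34 and held 5 sites, 3 in both.
Nfasc: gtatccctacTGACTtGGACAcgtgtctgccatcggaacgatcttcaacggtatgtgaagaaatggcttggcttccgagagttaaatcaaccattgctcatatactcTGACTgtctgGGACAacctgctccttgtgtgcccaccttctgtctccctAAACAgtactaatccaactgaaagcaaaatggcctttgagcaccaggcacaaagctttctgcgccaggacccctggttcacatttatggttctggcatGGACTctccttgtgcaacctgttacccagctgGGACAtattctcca
Cntn6: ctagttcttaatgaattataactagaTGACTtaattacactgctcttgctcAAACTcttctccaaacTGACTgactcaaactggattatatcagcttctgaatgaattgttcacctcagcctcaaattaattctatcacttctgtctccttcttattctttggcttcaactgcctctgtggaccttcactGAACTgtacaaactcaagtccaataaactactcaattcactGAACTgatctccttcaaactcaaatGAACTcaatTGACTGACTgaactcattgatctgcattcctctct
Dync2h1: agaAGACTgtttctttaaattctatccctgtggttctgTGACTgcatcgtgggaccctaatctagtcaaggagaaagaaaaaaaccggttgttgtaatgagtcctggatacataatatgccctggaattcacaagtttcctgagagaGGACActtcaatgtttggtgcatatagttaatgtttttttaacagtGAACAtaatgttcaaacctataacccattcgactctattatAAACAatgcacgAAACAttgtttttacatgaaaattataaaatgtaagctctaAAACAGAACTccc
Tenm2: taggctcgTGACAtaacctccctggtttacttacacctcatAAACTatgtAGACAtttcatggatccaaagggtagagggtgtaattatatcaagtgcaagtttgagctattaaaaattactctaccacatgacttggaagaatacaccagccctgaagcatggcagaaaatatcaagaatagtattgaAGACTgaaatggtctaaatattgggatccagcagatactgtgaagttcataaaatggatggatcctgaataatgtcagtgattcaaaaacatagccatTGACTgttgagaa

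Single sites at the extremes of distance from a splice site are shown in the same way, each as 41 nt. The listed adenosine is at the centre and its 5-mer is in capitals. Among sites found in both libraries, the one closest to a splice site was in Psip1, which encodes a chromatin-binding coactivator, 4 nt from an acceptor in intron 10 of 15 (chr4:83462537-83462577, minus strand). The next was in Lrfn5, a synaptic adhesion gene, 14 nt from the donor of intron 1 of 6 (chr12:61524824-61524864, plus strand). At 23 nt followed a site in Sfpq, a splicing and paraspeckle protein gene, near an acceptor in intron 8 of 11 (chr4:127029784-127029824, plus strand), as well as sites in Cacna1e and Zfp160. The farthest was in Nrg1, which encodes neuregulin 1, a ligand of ErbB receptors, 427103 nt from the donor of an intron of 874024 nt (chr8:32456393-32456433, minus strand). Nrg1 held 4 of the 5 most distant shared sites, and the other was in Asic2, an acid-sensing ion channel gene, 402654 nt from the donor of its first intron (chr11:81564956-81564996, minus strand).
Psip1: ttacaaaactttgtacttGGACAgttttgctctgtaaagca
Lrfn5: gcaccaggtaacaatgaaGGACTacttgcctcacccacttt
Sfpq: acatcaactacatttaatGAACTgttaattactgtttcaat
Nrg1: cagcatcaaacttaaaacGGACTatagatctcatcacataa
Asic2: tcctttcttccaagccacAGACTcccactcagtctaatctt

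Intronic DRACH sites seldom recurred between the libraries. The cerebellum list held 1856 of them and the cerebrum list 5445, and 713 were in both, leaving 1143 in the cerebellum alone and 4732 in the cerebrum alone. Thus 10.8% (10.1 to 11.6) of the intronic DRACH sites were found in both libraries, against 44.0% (43.7 to 44.3) of exonic DRACH sites. The difference was -33.2 percentage points (95% Newcombe interval -34.0 to -32.3), and the intronic share was the lower on 19 of 19 autosomes. Exonic DRACH sites of the 1790 genes that held an intronic one recurred at 51.1%, a gap of -40.3 points (-41.2 to -39.3). Both shares were pooled over this set of genes and not weighted per gene, and 110 of the genes had no exonic DRACH site. Intronic sites outside DRACH recurred least, at 1.39% (1.29 to 1.4995), which put intronic DRACH sites 9.43 points (8.70 to 10.2) above them, again on 19 of 19 autosomes.

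The share depended on the library it was taken over. Of the cerebellum sites 38.4% were also in the cerebrum list, and of the longer cerebrum list 13.1% were also in the cerebellum list. Among autosomes, the share found in both ran from 5.63% on chromosome 4 to 16.2% on chromosome 8, with a median of 11.3%. Depth and methylation level were not given, and in whole tissue fewer cells of a type and less RNA per cell cannot be told apart, so a site missing from a list is not shown to be unmethylated there.

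**Figure D1:**
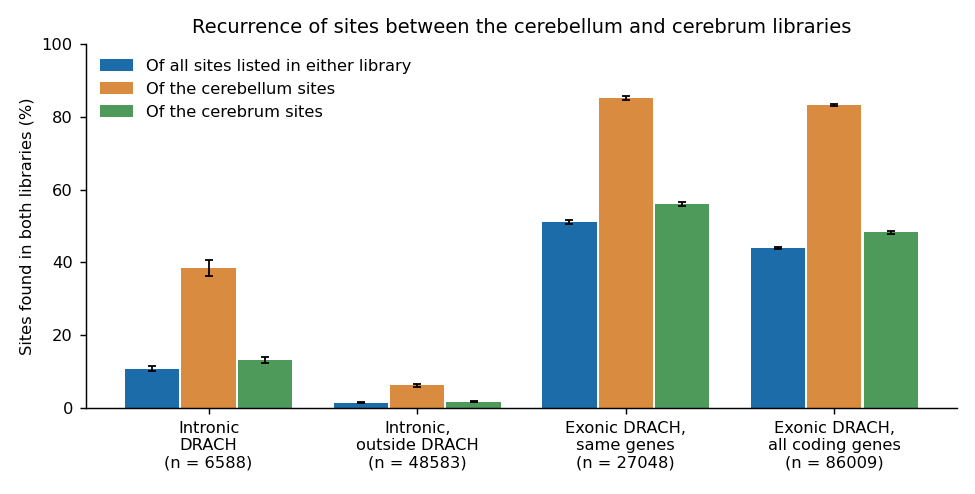
Share of sites found in both libraries (%, bars, with 95% Wilson intervals) for intronic DRACH sites, intronic sites outside DRACH, and exonic DRACH sites of the same genes or of all coding genes, taken over the union and over each library. Intronic DRACH sites stand between the other intronic sites and the exonic ones, at 10.8%, 1.39% and 44.0% of the union.

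DRACH was a minority motif among intronic positions and a majority one where a position recurred. Of all listed intronic positions, 11.9% (11.7 to 12.2) were in DRACH, against 57.2% (57.0 to 57.5) of exonic positions. The intronic value was 14.6% in the cerebellum list and 12.4% in the cerebrum list. Among intronic positions found in both libraries it was 51.3% (48.7 to 54.0), and among exonic positions found in both 85.0%. Seen the other way, intronic sites were 3.77% of DRACH sites in the cerebellum, 6.19% in the cerebrum and 1.79% of the DRACH sites found in both. The share of DRACH among all intronic adenosines is not given here, so the 11.9% is not set against a background.

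The sites were described against the other intronic DRACH adenosines of the same genes, 6479602 positions that were not listed in either library. An unlisted adenosine may be unmethylated or covered by too few reads, and the lists do not separate these. A listed position may in turn be a false call, which positions alone do not show. Long genes hold most of the unlisted adenosines and shorter genes a larger part of the listed sites, so a share pooled over all unlisted adenosines partly reflects gene length. Comparisons of position, repeats and annotation are therefore given first against a per-gene expectation, the share that would be found if the sites of each gene had been spread like that gene's own unlisted DRACH adenosines, and in part also against the pooled share. Comparisons of 5-mers, of GC content and of median distances are against the pooled adenosines alone and are not corrected for gene.

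Near splice sites intronic DRACH sites were more frequent than this expectation. The median distance to the nearest annotated donor or acceptor was 6670.5 nt for all intronic DRACH sites and 2613 nt for those found in both libraries, beside 10987 nt for unlisted DRACH adenosines and 13100 nt for intronic sites outside DRACH. Within 500 nt of a splice site lay 1096 sites, or 16.6% (15.8 to 17.6). The per-gene expectation was 11.1%, a 1.495-fold excess (1.42 to 1.58), and the pooled share 7.16%, a 2.32-fold excess (2.20 to 2.45). The share within 500 nt ranged from 9.31% on chromosome 6 to 27.2% on chromosome 13. Within 500 nt of a donor lay 13.5%, 1.47-fold (1.38 to 1.56) over the per-gene expectation, and within 500 nt of an acceptor 12.5%, 1.36-fold (1.27 to 1.45). Donors and acceptors were taken on either side of a site, also across an exon, so the same site could count for both. The acceptor value thus does not describe the 3′ end of introns. The last 20% of the intron held 12.2% of the sites, 0.612-fold (0.573 to 0.652) of the per-gene expectation.

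The excess was not uniform over distance. Against the per-gene expectation the sites were in excess at 1 to 50 nt (1.63-fold), 51 to 100 nt (1.78-fold) and 101 to 200 nt (1.66-fold). They were short of it between 5001 and 10000 nt (0.710-fold, 0.656 to 0.768) and between 10001 and 20000 nt (0.666-fold, 0.616 to 0.720). Beyond 50000 nt they were again in excess, with 1384 sites or 21.01% against an expected 16.1% (1.31-fold, 1.25 to 1.37). Intronic sites outside DRACH were also frequent beyond 50000 nt, at 23.2%, but only 8.03% of them lay within 500 nt of a splice site, 8.61 points (7.70 to 9.56) less than for DRACH. Of the intronic DRACH sites in the cerebellum list 17.996% were within 500 nt of a splice site, and of those in the cerebrum list 17.2%. Beyond 50000 nt were 25.9% and 19.4%.

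The DRACH motif and recurrence followed distance as well. DRACH made up 25.3% (22.0 to 29.0) of the intronic positions at 51 to 100 nt from a splice site, 14.1% at 1001 to 2000 nt and 8.68% (8.02 to 9.38) at 10001 to 20000 nt. Within 500 nt as a whole it was 21.9%, and beyond that 10.9%. Recurrence in both libraries was 18.5% (14.3 to 23.6) at 101 to 200 nt, 4.95% (3.44 to 7.06) at 5001 to 10000 nt and 10.9% (9.37 to 12.7) beyond 50000 nt. Of the sites found in both libraries 24.8% were within 500 nt of a splice site, against 15.6% of those in 1 library, a difference of 9.18 points (6.01 to 12.6).

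**Figure D2:**
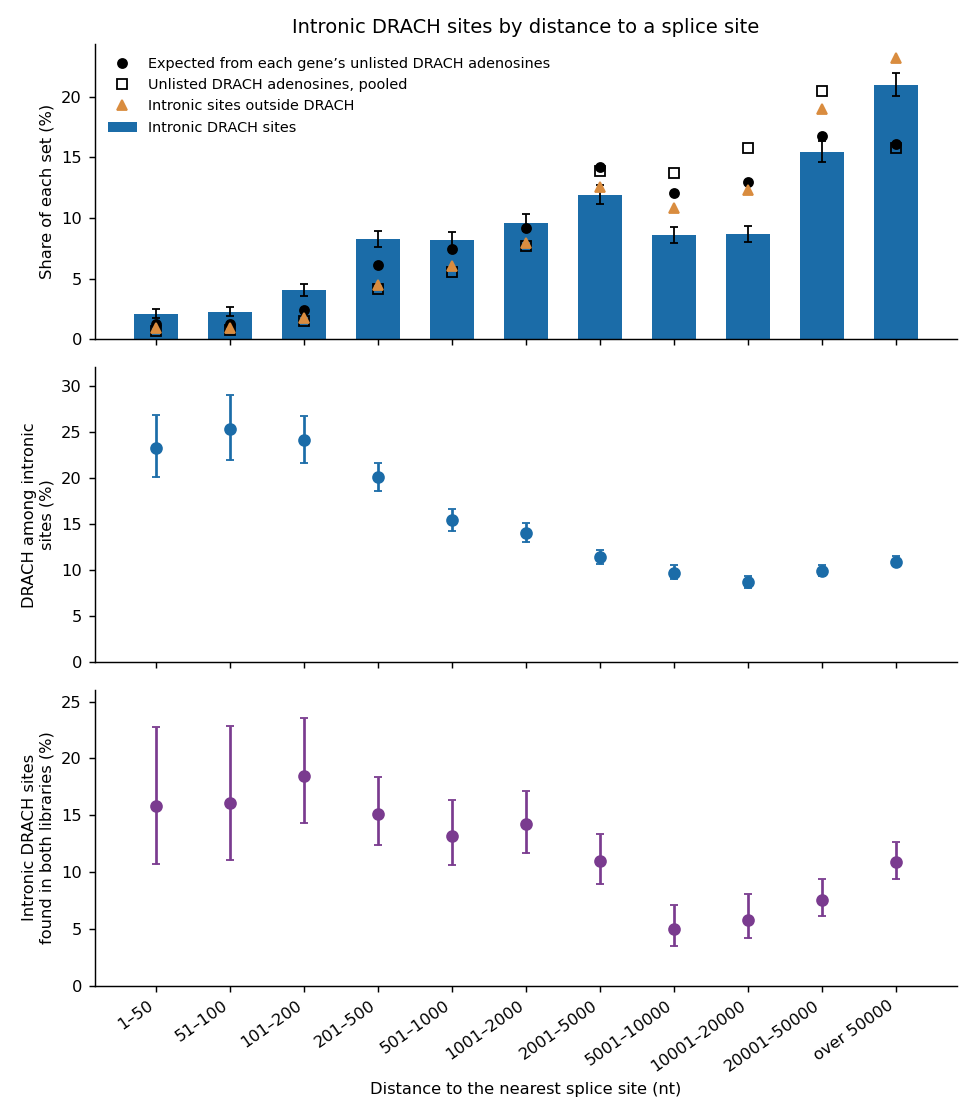
Intronic DRACH sites by distance to the nearest annotated splice site (nt, in bins of growing width). Top, share of each set per bin (%, bars for the sites with 95% Wilson intervals, dots for the per-gene expectation, squares for pooled unlisted adenosines, triangles for intronic sites outside DRACH). Middle and bottom, DRACH share of intronic positions and share of intronic DRACH sites found in both libraries, with 95% Wilson intervals. Bars stand above the dots up to 2000 nt and beyond 50000 nt and below them from 2001 to 50000 nt.

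Along the gene the sites leaned to the 5′ end. The first 10% of the gene held 14.5% (13.7 to 15.4) of intronic DRACH sites where 9.93% were expected per gene (1.46-fold, 1.38 to 1.55), while each later 10% held between 8.76% and 10.9%. The first 20% held 1.26-fold the per-gene expectation and the last 20% was close to it, at 1.01-fold (0.956 to 1.06). Intronic sites outside DRACH leaned to the 5′ end more evenly, from 12.8% in the first 10% of the gene to 5.32% in the last. The first 20% held similar shares, 25.4% of intronic DRACH sites and 24.9% of those outside DRACH (difference 0.509 points, -0.597 to 1.64). Over the same parts the DRACH share of intronic positions was 9.57% from 20 to 30% of the gene and 18.4% in the last 10%. The last intron held 7.999% of the sites, 1.15-fold over the per-gene expectation and 1.77-fold over the pooled share.

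Inside the intron the gradient was steeper. The first 10% of an intron held 17.2% (16.3 to 18.1) of the sites, 1.72-fold (1.63 to 1.81) over the per-gene expectation, and the part from 80 to 90% held 5.72%, 0.570-fold (0.517 to 0.629). Intronic sites outside DRACH ran the same way, from 13.5% in the first 10% of the intron to 5.94% in the last. In the cerebellum library 17.9% of the intronic DRACH sites lay in the first 10% of the intron, and in the cerebrum library 17.1%.

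**Figure D3:**
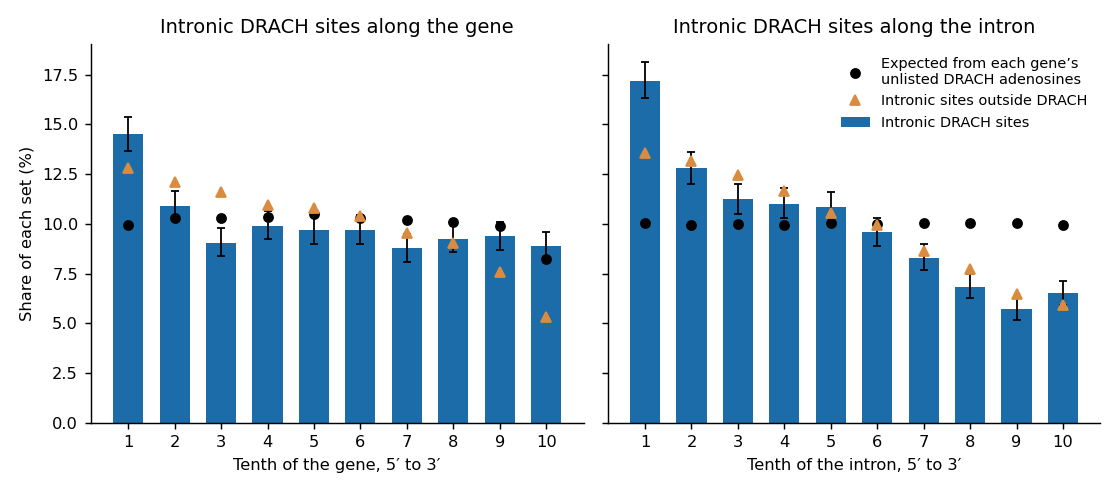
Share of intronic DRACH sites (%, bars with 95% Wilson intervals) in 10 equal parts of the gene (left) and of the intron (right) from 5′ to 3′, with the per-gene expectation from unlisted DRACH adenosines (dots) and intronic sites outside DRACH (triangles). The first part is the highest in both panels, at 14.5% and 17.2%.

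Sites found in both libraries lay further towards the 3′ end. The last 20% of the gene held 26.1% of them and 17.3% of the sites found in 1 library, a difference of 8.78 points (5.53 to 12.3). The last intron held 13.04% and 7.39% (difference 5.66 points, 3.28 to 8.40). In introns of up to 5 kb lay 31.0% and 20.6% (10.4 points, 6.92 to 14), and in introns over 50 kb lay 39.0% and 50.5% (-11.5 points, -15.3 to -7.70). The first 20% of the gene, in contrast, held similar shares of both, 23.4% and 25.6%, with an interval of the difference from -5.38 to 1.22 points.

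A part of the sites lay beside or inside transcript structures that GENCODE M21 does not give as exons. An exon of RefSeq, an annotation made independently, covered 9.82% of the intronic DRACH sites. The per-gene expectation was 3.38%, a 2.91-fold excess, and the pooled share of unlisted adenosines 2.37%. Among the sites found in both libraries the share was 21.9% (19 to 25.1), and among the others 8.36%. Most of these exons were computed models, since exons of known RefSeq transcripts covered 2.50% of the sites. DRACH made up 24.3% of intronic positions inside RefSeq exons and 11.3% of the rest.

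An annotated transcript end of the same gene lay at most 2000 nt upstream of 10.4% of the sites, 1.90-fold over the per-gene expectation and 3.50-fold over the pooled share. For sites found in both libraries the share was 20.3% (17.5 to 23.4), against 9.19% for the others. Recurrence was 21.2% with such an end upstream and 9.62% without. The part of unannotated transcript ends and exons in the recurring sites was not tested.

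Repeats held fewer sites than the per-gene expectation. Repeat-masked sequence covered 14.7% of intronic DRACH sites, 0.618-fold (0.583 to 0.654) of the per-gene expectation of 23.9%. It covered 24.5% of the pooled unlisted adenosines and 23.3% of intronic sites outside DRACH. Of the sites found in both libraries 11.4% were in repeats. As a description of what lay downstream on the same strand, the hexamer AATAAA, the main polyadenylation signal, began within 1000 nt after 48.8% of the sites, against a per-gene expectation of 50.8%. A run of 10 A followed within 1000 nt in 9.29%, with the same expectation, 9.29%. Among sites found in both libraries AATAAA followed 43.3%, against 49.5% of the others (difference -6.18 points, -9.99 to -2.30), and a run of 10 A followed 12.5%, against 8.90% of the others (difference 3.58 points, 1.23 to 6.30). The 50 nt on each side of a site had a median GC content of 39.6%, against 41.6% around unlisted adenosines and 35.6% around intronic sites outside DRACH. An exon on the opposite strand covered 90 sites, or 1.37%.

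The 5-mers of the intronic sites were led by those ending in T. The most frequent 5-mer was GAACT, with 891 sites or 13.5% (12.7 to 14.4), 2.40-fold over its share of unlisted DRACH adenosines. GGACT followed with 734 sites (11.1%, 2.85-fold), then AGACT with 729 (11.1%, 1.88-fold), TGACT with 598 and AAACT with 596. A final T was present in 58.3% of intronic and 58.2% of exonic DRACH sites (interval of the difference -1.09 to 1.38 points), against 34.7% of unlisted adenosines. A G in the second position was present in 53.8% of intronic and 64.3% of exonic sites, a difference of -10.5 points (-11.8 to -9.29).

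Several 5-mers more frequent in introns than in exons recurred little. AAACA made up 5.63% of intronic and 2.70% of exonic sites, and TAACA 3.11% and 0.657%. Of 371 intronic AAACA sites 9 were found in both libraries (2.43%), of 205 TAACA sites 1 (0.488%), and of 145 AAACC sites 0, which allows a share of up to 2.58% by the Wilson interval. GAACT, also more frequent in introns by 1.23 points, recurred at 14.1%. In the other direction GGACA made up 6.39% of intronic and 10.5% of exonic sites and GGACC 2.78% and 6.34%. Of the intronic GGACC sites 16.9% (12.2 to 23.0) recurred, of GGACA 16.4% and of GGACT 15.5%. Over all sites with a final T recurrence was 13.3% (12.2 to 14.4), with a final A 7.96% and with a final C 5.92%.

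Intronic DRACH sites had a neighbour of their own class less often than exonic ones, and than intronic sites outside DRACH. Another intronic DRACH site lay within 200 nt on the same strand for 1441 sites, or 21.9% (20.9 to 22.9), against 79.8% of exonic DRACH sites with another exonic one. Among intronic sites outside DRACH the share was 27.7% (27.3 to 28.1). These shares were not corrected for how densely each class was listed. Clustered sites recurred more: 27.2% (24.97 to 29.6) of sites with a neighbour were found in both libraries, against 6.24% (5.61 to 6.93) of the others, a difference of 20.97 points (18.6 to 23.4). When sites at most 200 nt apart were joined, 5147 stood alone and 71 clusters held 4 or more. These 71 clusters held 378 sites, of which 43.9% (39.0 to 49.0) were in both libraries. RefSeq exons covered every site in 22 of the 71 clusters and none in 47.

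The largest cluster was in Nfasc, which encodes neurofascin, an adhesion protein of the axon initial segment and nodes of Ranvier. It held 12 sites in 678 nt of an intron of 1865 nt, and 5 DRACH adenosines of that span were unlisted. The cerebellum list held 9 of the 12 and the cerebrum list all 12. The next was in Phf14, a PHD finger gene of chromatin, with 11 sites, 10 in each library and 9 in both, all inside a RefSeq exon. Cntn6, which encodes contactin 6, an immunoglobulin adhesion protein, had 9 sites, 6 of them in both libraries, 12594 nt or more from a splice site. Cacna1e, an R-type calcium channel gene, had 8, of which 4 were in both, in intron 41 of 51. Dync2h1, the heavy chain of the dynein of cilia, had 8 within 290 nt of its first intron, 4 of them in both.

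A further 5 clusters completed the 10 that are named. Tenm2, which encodes teneurin 2, had 8 sites with 5 in both libraries, 70914 nt from the nearest splice site. Gria1, an AMPA receptor subunit gene, had 8 with 5 in both, in intron 19 of 20. Pde4d, a cyclic AMP phosphodiesterase gene, had 8 with 5 in both, all inside a RefSeq exon 281 nt or more from a splice site of GENCODE. Pde4dip, a scaffold gene of the centrosome and Golgi, had 7 with 3 in both, and Ptprz1, a receptor phosphatase gene of glia and progenitors, had 7 with 4 in both. These last were taken by chromosome and start from 9 clusters of 7 sites. Repeat-masked sequence held 0 sites of the clusters in Nfasc, Cacna1e, Dync2h1, Tenm2, Gria1, Pde4d and Pde4dip, 1 each in Phf14 and Ptprz1, and 2 in Cntn6.

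**Figure D4:**
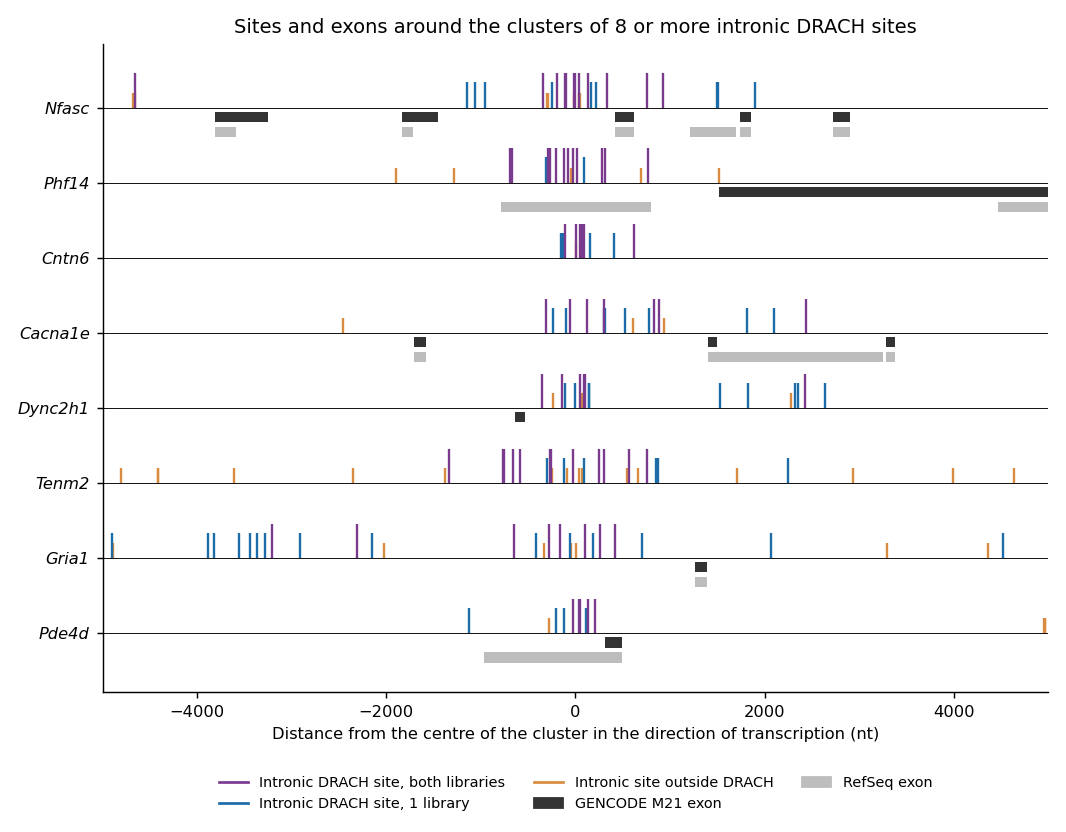
Sites within 5 kb of the centre of the 8 clusters of 8 or more sites, in the direction of transcription (nt from the centre), with exons of GENCODE M21 and RefSeq below each line. Tall ticks are intronic DRACH sites in both libraries, middle ticks those in 1 library and short ticks intronic sites outside DRACH, while exonic sites are not drawn. The Phf14 and Pde4d clusters lie inside a RefSeq exon and the other 6 clusters outside the exons of both annotations.

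The sites were spread over 1790 genes, which is 17.8% of the 10070 coding genes with a listed DRACH site. Of these genes 935 held 1 site, and 141 genes with 10 or more held 3151 sites, or 47.8%. Exonic DRACH sites were listed in 1680 of the 1790 genes, and 110 genes had intronic DRACH sites alone. Of the 673 genes with a cerebellum site 77.3% also had a cerebrum site, though not always the same one, and of the 1637 genes with a cerebrum site 31.8% had one in the cerebellum. A site found in both libraries was present in 320 genes.

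Gene length went with the number of sites. Of coding genes with a listed DRACH site, 5.25% of those up to 20 kb held an intronic one, against 71.3% of those from 300 to 1000 kb and 90.7% of those over 1000 kb. Intronic sites were 1.35% of the DRACH sites of genes up to 20 kb and 55.0% (53.0 to 57.1) of those of genes over 1000 kb. Per 1000 intronic DRACH adenosines, however, the number listed was 0.653 in genes up to 20 kb, 0.345 in genes of 50 to 100 kb and 0.824 in genes over 1000 kb. The DRACH share of intronic positions was 31.2% (28.3 to 34.2) in the shortest class and 10.4% in the longest.

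The 20 genes with the most sites, all of 551 kb or longer, held 1085 of them, or 16.5%. Tenm2 led with 88, of which 43 were in the cerebellum list, 64 in the cerebrum list and 19 in both, spread over 10 introns. Nrg3, an ErbB4 ligand gene, had 79 (34, 60 and 15 in the same order), and Ptprd, a presynaptic receptor phosphatase gene, 78 (9, 75 and 6). Rbfox1, a neuronal splicing regulator gene, had 68 (19, 58 and 9) beside only 7 exonic DRACH sites. Other leading genes were Lsamp with 64, Ctnna2 with 63, Nkain2 with 54, Pcdh9 with 50, Nrg1 with 49, Dlg2 with 47, Frmd4a with 45, Negr1 with 44, Kirrel3 and Lrrtm4 with 43 each, Nrxn3 and Ntm with 41 each, Cntnap2 with 40, Grip1 with 39 and Fgf14 with 37. Lsamp, Negr1 and Ntm encode adhesion proteins of the IgLON family, Pcdh9 and Kirrel3 other adhesion proteins, Ctnna2 a catenin of neurons, and Grip1 a scaffold of AMPA receptors.

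Over all intronic DRACH sites the cerebrum list held 5445 and the cerebellum list 1856. In 19 of the 20 leading genes the cerebrum list likewise held more, the exception being Cntnap2, an axonal adhesion gene, with 25 in the cerebellum and 24 in the cerebrum. Dlg2, a postsynaptic scaffold gene, had 6 and 46, Ptprd 9 and 75, and Lrrtm4, a postsynaptic adhesion gene whose 43 sites all lay in 1 intron, 24 and 28. Nrg1 had 14 of its 49 in both. Set against their own intronic DRACH adenosines, the leading genes held from 0.895 sites per 1000 in Cntnap2 to 3.86 in Frmd4a, beside 1.02 over all genes with a site. In 17 of the 20 the intronic sites outnumbered the exonic DRACH sites, which was so in 234 of the 1790 genes.

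**Figure D5:**
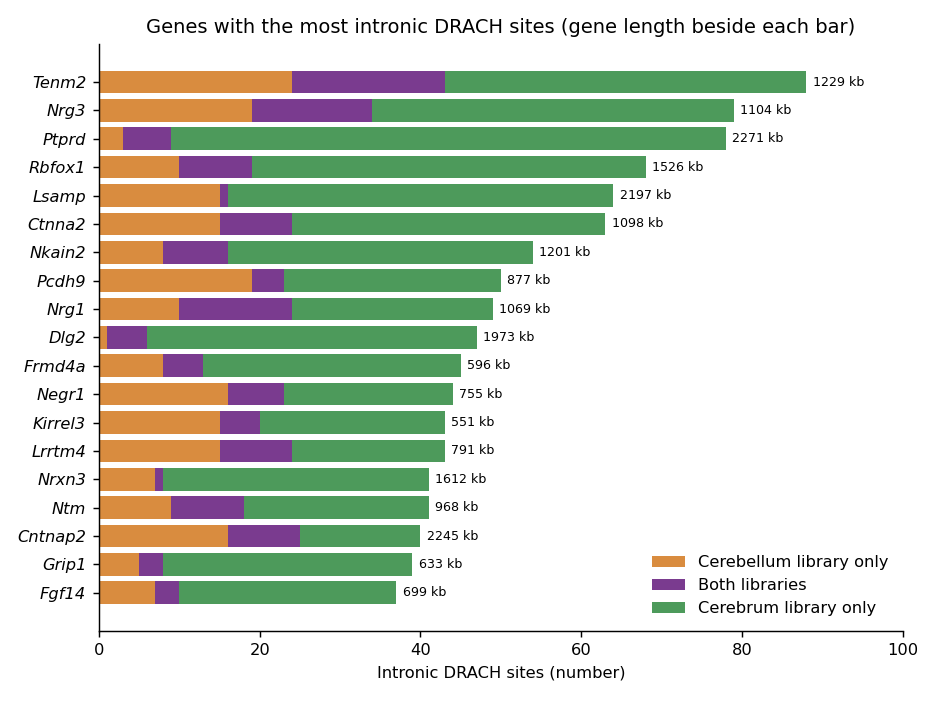
Number of intronic DRACH sites in 19 of the 20 genes with the most, split into those of the cerebellum library alone, of both and of the cerebrum library alone, with the gene length in kb beside each bar. Tenm2 has 88 and Fgf14 37, and the part of the cerebrum library alone is the longest in every gene shown but Cntnap2.

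Gene groups of the brain differed in how far their DRACH sites were intronic, beside 7.11% over all coding genes. For synaptic adhesion, 33 of 41 genes with a listed DRACH site held an intronic one, 771 in all, and 43.3% (41.0 to 45.6) of the DRACH sites were intronic, in genes of a median 580 kb. Ion channel genes, with a median of 310 kb, had 323 in 43 of 58 genes (24.1%), led by Gria1 with 32, the potassium channel gene Kcnd2 with 31 and its partner Kcnip4 with 22. Axon guidance genes, with a median of 195 kb, had 161 in 26 of 40 (15.7%), led by the plexin gene Plxna4 with 23, the netrin receptor gene Dcc with 22 and the Slit receptor gene Robo1 with 14. Genes grouped here as neural transcription factors, with a median of 96.6 kb, had 169 in 27 of 56 (14.02%). Auts2, which was counted in this list, had 29, Myt1l 22 and Tcf4 14.

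Genes of RNA and chromatin regulation were lower, apart from splicing regulators outside the SR family. Those splicing regulators, of a median 39.1 kb, had 170 sites in 23 of 45 genes (29.8%). Of these sites, 68 were in Rbfox1 (1526 kb), 31 in Celf2 (970 kb) and 26 in Celf4 (277 kb), genes far longer than the median. SR proteins and their kinases had 16 in 11 of 29 (5.21%, 3.23 to 8.30), with 3 each in Scaf8 and Srrm2 and 2 in Srsf10. The 3 in Srrm2, a spliceosome scaffold gene, were in both libraries and inside RefSeq exons. Chromatin regulators, with a median of 83.8 kb, had 41 in 23 of 54 (2.43%), among them 7 in Arid1b and 3 each in Chd6 and Kdm6a. The m6A machinery, with genes of a median 29.9 kb, had 3 in 2 of 18 genes (0.977%, 0.333 to 2.83). Of these, 2 were in Ythdc1, the nuclear m6A reader, and 1 in Ythdf3, a cytoplasmic reader. All 3 were in the cerebrum list alone, as were 4732 of the 6588 intronic DRACH sites. Cytosolic ribosomal protein genes, of a median 3.23 kb, had 0 intronic sites beside 43 exonic ones in 27 genes, which allows an intronic share of up to 8.201% by the Wilson interval.

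Recurrence and density were counted for the same groups. Over all intronic DRACH sites 713 of 6588 were in both libraries. Of the synaptic adhesion sites 104 of 771 were in both libraries and of the ion channel sites 44 of 323, and of the neural transcription factor sites 1 of 169 and of the chromatin regulator sites 1 of 41. Neural transcription factor sites were 23 in the cerebellum list and 147 in the cerebrum list, beside 1856 and 5445 over all intronic DRACH sites. Per 1000 intronic DRACH adenosines, 1.58 were listed in splicing regulators outside the SR family, 1.47 in synaptic adhesion, 1.06 in SR proteins and kinases, 0.400 in chromatin regulators and 0.199 in the m6A machinery, beside 0.504 over all coding genes with a DRACH site. The genes of a list share libraries and differ in expression, which the lists of positions do not give, so the part of expression in these counts was not tested.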

How the data were processed

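Per the labels, poly(A)+ RNA of 1 cerebellum and 1 cerebrum was treated with glyoxal and nitrite and sequenced. The authors ran GLORI-tools against mm10 and against an mm10 copy carrying PWK bases, and kept in each library the union of positions with a methylation rate over 0.1 and a read count over 8. The deposited lists give chromosome, position and strand in BED form, a unit other than counts, and no rate or read count, so depth is unknown.

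The lists were united, and motifs, exons, introns and splice sites were read from GRCm38, GENCODE M21 and RefSeq (Python 3.11.15, numpy 2.4.6, pandas 2.3.3). The methods name another GENCODE release, and 5-mers come from the C57 reference, so a motif changed by a PWK base was not seen. Where genes overlapped, 125 sites in all, the shortest coding gene was taken as host. Introns were the gaps between the merged exons of a gene.

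Shares carry 95% Wilson intervals and differences 95% Newcombe intervals (scipy 1.17.1), which cover counting error only. There was 1 library per tissue and no test between tissues, and no p-value was computed. The sites, the gene lists and the comparisons were chosen with earlier results of these data known. Genes were named by rule: the 20 with the most sites, those of the 10 largest clusters, the top 3 of each list, and those of the 5 nearest and 5 farthest sites found in both libraries. Of these genes 1 is not reported here by name. The per-gene expectation and the RefSeq exons were added after seeing the data. Annotation and shares were checked against a plain recount and on simulated data.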

Additional observations from a re-analysis of the deposited data

How the results depend on the processing

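None of the values recomputed under every alternative, those given here, changed direction. Folds here are over the pooled unlisted DRACH adenosines, for which the main values were 1.29 for the first 20% of the gene, 1.77 for the last intron, 0.602 for repeats, 2.32 for 500 nt around a splice site and 3.50 for a transcript end upstream. Weighting the unlisted adenosines by the sites of each gene, chosen after seeing the data, gave 1.15 for the last intron, 1.495 for splice sites and 1.90 for transcript ends, and left the first 20% and repeats within their intervals. With the same weighting, features that had no other alternative crossed 1: introns over 50 kb moved from 0.894 (0.872 to 0.916) to 1.03 (1.00 to 1.05), the last 20% of the gene from 0.963 to 1.01 and a run of 10 A downstream from 1.02 to 0.9996. The pooled excess in the last intron thus rests largely on which genes hold sites.

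When only exons of coding transcripts barred a site, the DRACH share of intronic positions was 13.1%, the recurrence difference from exonic sites -30.6 points, the folds 1.21, 1.31, 0.748, 2.98 and 3.97 in that order, and the share with a neighbour 28.4%. With the RRACH motif (A or G first) the DRACH share was 9.04%, its difference within and beyond 500 nt of a splice site 8.84 points, the folds 0.556 for repeats, 2.57 for splice sites and 3.90 for transcript ends, and the share with a neighbour 20.5%. Outside repeats the DRACH share was 13.1% and its difference by distance 12.7 points. Without the 20 leading genes the folds were 1.19 for the first 20%, 1.93 for the last intron, 2.59 for splice sites and 3.87 for transcript ends, and 20.8% had a neighbour.

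Among intronic positions found in both libraries, 713 of them in DRACH, the DRACH share was 51.3%, its difference by distance 26.1 points, the folds 1.21, 3.04, 0.467, 5.14 and 10.7, and 30.7% had a neighbour that was itself in both libraries (55.0% had one in either). Over the per-gene expectation the folds of these 713 sites were 1.13 (0.985 to 1.28), 1.53, 0.480, 1.74 and 3.02 in the same order. The interval for the first 20% of the gene thus included 1. Among intronic positions of the cerebellum list, 1856 of them in DRACH, the DRACH share was 14.6%, the difference by distance 17.1 points and the folds 1.36, 2.51, 0.549, 3.23 and 5.91. In the cerebrum list the DRACH share was 12.4% and the splice site fold 2.48. Outside RefSeq exons, also chosen after seeing the data, the DRACH share was 11.3%, the recurrence difference -34.6 points, the difference by distance 9.21 points, the folds 1.40 for the last intron, 2.17 for splice sites and 2.82 for transcript ends, and 19.8% had a neighbour.

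Windows of 200 and 1000 nt around splice sites gave folds of 2.81 and 1.96, windows of 1000 and 5000 nt for transcript ends 3.98 and 2.49, and windows of 100 and 500 nt for neighbours 16.9% and 29.4%. The cause of these shifts was not tested. In all, 61 values stayed within their intervals, or within 1.5 times for the number of sites, and 56 moved. No paired analysis was possible because each tissue had 1 library. Depth limits every share, since a position with few reads could not be listed and read counts were not used here.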
